A study of Mus musculus with 31 samples.

Results

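The genes described here are 10 targets of the transcription factor p53: Cdkn1a, Ccng1, Trp53inp1, Btg2, Sesn2, Ppm1d, Plk2, Zmat3, Phlda3 and Eda2r. They are grouped as targets of cell cycle arrest and feedback on p53 signalling, a name that does not cover every product described below. They were taken by name, with no measured value in the rule, out of 46072 genes listed in the files. The choice was made with earlier results of these data known. Their shares beside those of all genes therefore describe the set and are not an independent test of it. Each of the 10 was listed in every library and had a mean level above the filter on low values (a mean of 0.5 TPM) in both tumor models. TPM is a transcript level corrected for gene length that sums to 1000000 in each library. Ionizing radiation breaks DNA, damage kinases stabilize p53, and p53 then switches on genes within hours. Some of these genes hold the cell before S phase or mitosis, some repair DNA or kill the cell, and some, such as Mdm2 and Ppm1d, shut the response down again, which gives it the shape of a pulse.

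Gene expression was measured by mRNA-seq in 31 tumors, each from a different mouse. Young male wild-type C57BL/6J mice carried a subcutaneous tumor in the right hind leg, grown from RM-9, a mouse prostate cancer line, or MC-38, a mouse colon cancer line. Tumors of both lines were either left untreated or given a single local dose of 15 Gy (RT) and collected 3 h, 12 h or 24 h later. There were 15 RM-9 tumors (4 control, 4 RT 3 h, 4 RT 12 h and 3 RT 24 h) and 16 MC-38 tumors (4 in each group). The control tumors are labelled with the 3 h time, and the same 4 control tumors of a model serve all of its comparisons, so neither 12 h nor 24 h has an untreated tumor of its own time. Each model is 1 cell line, and the tissue also holds host cells, so fewer cells of a type and less RNA per cell cannot be told apart.

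Each library held from 21400000 to 29400000 reads, a depth derived from its FPKM and coverage at 75 bases a read. The mitochondrial transcript mt-Nd4l alone took 35.6 to 43.5% of all TPM in RM-9 tumors and 12.9 to 29.6% in MC-38 tumors. Because the total is fixed, a gene's TPM also depends on the share taken by such transcripts. The median log2 change over all genes tested was 0.056, -0.19 and -0.04 at 3, 12 and 24 h after RT in RM-9, and 0.19, 0.33 and 0.22 in MC-38. Each change is therefore given on the TPM as deposited and again under median-ratio scaling, which sets the typical gene to no change. Epithelial markers summed to 1155 to 1396 TPM in RM-9 control tumors, mostly keratins, and to 0.670 to 1.22 TPM in MC-38 control tumors, although both lines are labelled adenocarcinoma. Skeletal muscle markers summed to 226 to 2119 TPM in RM-9 control tumors and to 19.1 to 10125 TPM in MC-38 control tumors, where mouse 1 had the highest sum.

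The promoters of the genes differ in a feature that bears on p53. The p53 half-site consensus, the 10-base word that p53 binds as a pair, was searched on both strands in the 250 bases before each transcription start, in RefSeq promoters of GRCm38.p6. Promoters were found for 8 of the 10 genes (9 promoters, as Cdkn1a has 2 starts). An exact half-site lay in 3 of these 9 promoters (33.3%), against 2341 of 32851 promoters of all genes (7.13%). An adjacent pair of half-sites with at most 1 mismatch over its 20 bases lay in 2 of the 9, Cdkn1a and Ccng1, against 25 of all promoters (0.0761%). The 3 promoters with a match are shown because no other promoter of the 9 held one. They run 5′ to 3′ on the strand of the gene, with the matched bases in capitals: Cdkn1a at chr17:29090729-29090978 (plus strand), Ccng1 at chr11:40755287-40755536 (minus strand) and Ppm1d at chr11:85311004-85311253 (plus strand).
Cdkn1a: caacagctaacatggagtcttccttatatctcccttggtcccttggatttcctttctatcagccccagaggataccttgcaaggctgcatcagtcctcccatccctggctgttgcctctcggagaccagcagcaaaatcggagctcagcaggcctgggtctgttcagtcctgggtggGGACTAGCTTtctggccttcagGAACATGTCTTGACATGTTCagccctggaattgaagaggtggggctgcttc
Ccng1: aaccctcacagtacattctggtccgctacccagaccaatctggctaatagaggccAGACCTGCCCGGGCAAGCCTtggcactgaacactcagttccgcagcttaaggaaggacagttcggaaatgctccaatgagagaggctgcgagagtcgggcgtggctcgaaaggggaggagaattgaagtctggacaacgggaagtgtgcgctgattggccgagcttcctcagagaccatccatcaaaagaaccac
Ppm1d: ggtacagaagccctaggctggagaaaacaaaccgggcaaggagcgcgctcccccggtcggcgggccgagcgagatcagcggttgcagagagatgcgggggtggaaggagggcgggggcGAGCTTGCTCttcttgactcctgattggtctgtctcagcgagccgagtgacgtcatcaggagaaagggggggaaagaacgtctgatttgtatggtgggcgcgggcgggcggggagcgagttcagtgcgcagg
In Cdkn1a the pair spans bases -51 to -32 from the start, with a second half-site at -73 to -64. The Ccng1 pair spans -195 to -176 and the single Ppm1d half-site -132 to -123. The downstream Cdkn1a start and the promoters of Btg2, Sesn2, Plk2, Phlda3 and Eda2r held no match, which says only that these letters are not in this window.

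**Figure D1:**
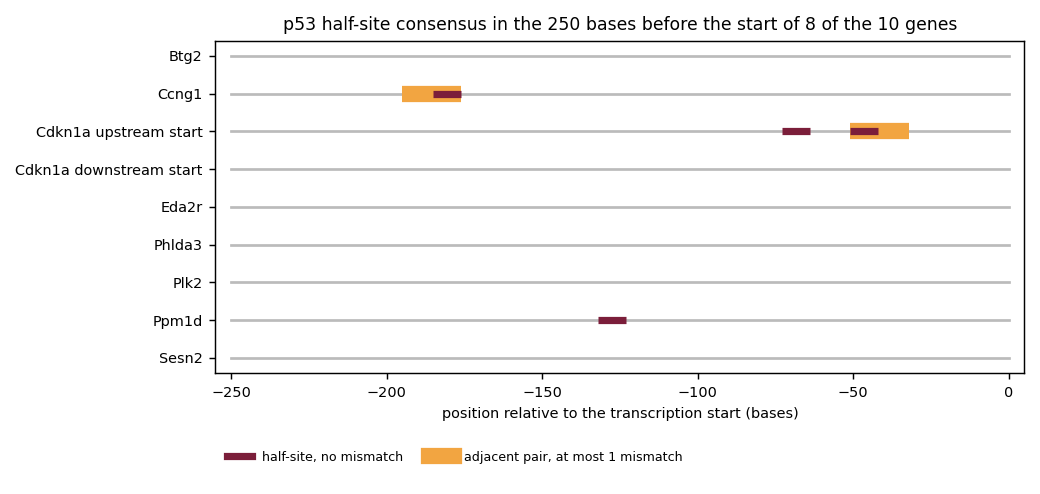
Map of p53 half-site matches (dark red, no mismatch) and adjacent pairs (orange, at most 1 mismatch) in the 250 bases before the transcription start of 8 genes, with the position in bases from the start on the horizontal axis. Matches are drawn in 3 of 9 promoters, and pairs in Ccng1 and the upstream Cdkn1a start.

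In RM-9 tumors, the genes were at their highest mean 3 h after RT. Adjusted p-values are from limma over all 14013 genes tested, and fold changes are on the log2(TPM + 0.5) scale, which understates the change of low genes. At 3 h, 5 of the 10 genes rose at an adjusted p under 0.05 (Trp53inp1, Ccng1, Cdkn1a, Sesn2 and Plk2), where 0.2% of all genes were called higher. With median-ratio scaling 8 of 10 were called higher, where 1.61% of all genes were, the added genes being Eda2r, Ppm1d and Zmat3. In 9 of 10 genes all 4 irradiated tumors lay above all 4 controls on TPM, against 9.88% of all genes, and under median-ratio scaling 9 of 10 did, against 7.96%. The median log2 change of the 10 was 0.81, beside 0.056 for all genes.

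Cdkn1a (chr17:29090979-29100722) encodes p21, the cyclin-dependent kinase inhibitor through which p53 arrests cells before S phase. Its TPM was 116, 83.6, 92.7 and 98.8 in the 4 RM-9 control tumors and 181, 225, 157 and 198 at 3 h. Every irradiated tumor was above every control, a 1.94-fold rise with a log2 change of 0.96 (SE 0.13, adjusted p = 0.0106). Ccng1 (chr11:40748552-40755311) encodes cyclin G1, which recruits a phosphatase to MDM2 and so feeds back on p53. It went from 66.6, 62.6, 52.6 and 79.8 TPM in controls to 119.6, 168, 113 and 183 TPM, a log2 change of 1.13 (SE 0.18, adjusted p = 0.0277). Plk2 (chr13:110395044-110400844), a polo-like kinase of the stress checkpoint, rose from 9.05, 7.07, 7.47 and 8.34 TPM to 13.6, 17.2, 11.6 and 15.4 TPM, a log2 change of 0.81 (SE 0.15, adjusted p = 0.0375). Btg2 (chr1:134075170-134079120), an antiproliferative partner of the mRNA deadenylation machinery, was the only one of the 10 with overlapping groups at 3 h. It had 16, 15.2, 13.1 and 19 TPM in controls and 21.1, 35.7, 16.2 and 32.8 TPM after RT, so that mice 2 and 4 stood well above mice 1 and 3, and its log2 change of 0.67 (SE 0.21, adjusted p = 0.126) did not pass the test.

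Trp53inp1 (chr4:11156431-11174379), a stress protein that promotes p53 phosphorylation, had the largest log2 change of the 10 at 3 h. Its TPM was 3.06, 3.19, 3.67 and 4.25 in RM-9 controls and 9.85, 15.6, 9.55 and 18 at 3 h, a 3.30-fold rise with a log2 change of 1.72 (SE 0.18, adjusted p = 0.00163). The call held in 8 of 8 fits that left out 1 mouse, against 6 of 8 for Cdkn1a and 2 of 8 for Sesn2. Ppm1d (chr11:85311244-85347066) encodes the phosphatase Wip1, which removes activating phosphates from p53 and its kinases. It had 6.14, 6.30, 5.52 and 7.16 TPM in controls and 7.97, 9.17, 7.88 and 9.35 TPM at 3 h, without overlap, but its log2 change of 0.43 (SE 0.11, adjusted p = 0.108) passed only under median-ratio scaling, at 0.36 (adjusted p = 0.0469). Its FPKM was 6.16 times the value implied by its read coverage (median over the libraries), and the library with the fewest reads of Ppm1d held about 80.2.

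Sesn2 (chr4:132492032-132510501), a sestrin that restrains mTORC1 under stress, rose from 7.23, 5.75, 11.2 and 8.29 TPM to 13.7, 18.3, 13.1 and 16.9 TPM, a log2 change of 0.92 (SE 0.16, adjusted p = 0.0331). Eda2r (chrX:97333840-97377216), a receptor of the TNF receptor family, had 11.8, 12, 16.7 and 15.1 TPM in controls and 25.8, 26.3, 18.3 and 29.1 TPM at 3 h. Its groups did not overlap, and its log2 change was 0.81 (SE 0.16, adjusted p = 0.0518) on TPM and 0.74 (adjusted p = 0.0113) under median-ratio scaling. Zmat3 (chr3:32334792-32366014), an RNA-binding zinc finger protein, and Phlda3 (chr1:135766119-135769136), a pleckstrin homology domain protein that holds back Akt, had the smallest log2 changes of the 10 on TPM. Zmat3 was 16.4 to 19.7 TPM in controls and 20.7 to 28.8 TPM at 3 h, with a log2 change of 0.40 (SE 0.13, adjusted p = 0.124). Phlda3 was 82.1 to 94.1 TPM in controls and 104 to 132 TPM at 3 h, with a log2 change of 0.37 (SE 0.10, adjusted p = 0.105). Neither group pair overlapped, and under median-ratio scaling Zmat3 passed with 0.33 (adjusted p = 0.0443) while Phlda3 did not, with 0.30 (adjusted p = 0.0774).

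The exact two-sided permutation test of mean TPM gave p = 0.0286 for 9 of the 10 genes at 3 h in RM-9, the smallest value that 4 tumors against 4 can give, and p = 0.0571 for Btg2. The number of genes called rested on single mice: it was 1 without RM-9 control mouse 2 or RM-9 RT 3 h mouse 2, 2 without RM-9 control mouse 1 or RM-9 RT 3 h mouse 4 and 3 without RM-9 control mouse 4 or RM-9 RT 3 h mouse 1, and 0 when only the control and RT 3 h tumors were in the fit. In the same tumors skeletal muscle markers summed to 226 to 2119 TPM in controls and 3.20 to 838 TPM at 3 h, and macrophage markers to 377 to 594 TPM and 265 to 402 TPM. T cell markers summed to 6.37 to 10.5 TPM in controls and 2.26 to 5.92 TPM at 3 h, without overlap. No gene of these 3 lists was called at 3 h, and their part in the result was not tested.

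**Figure D2:**
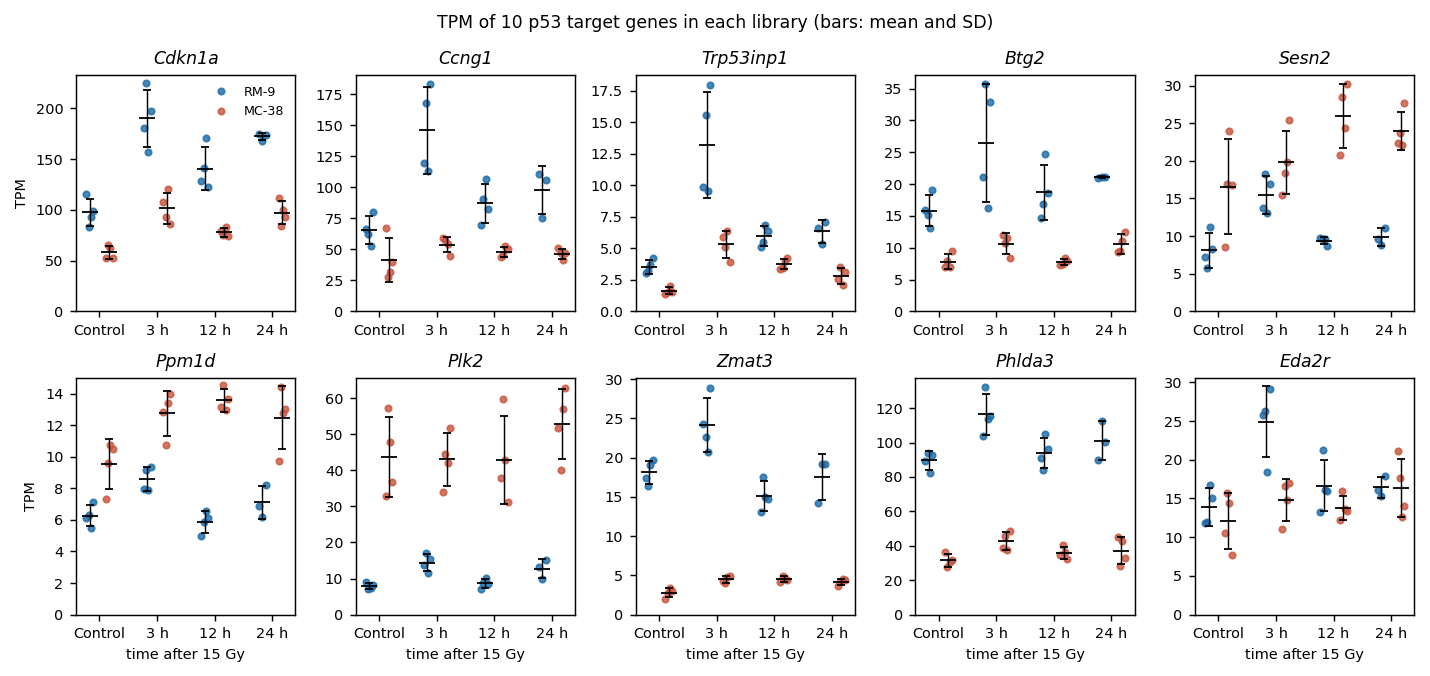
TPM of each of the 10 genes (vertical axes, from 0) in every library by time after RT, with RM-9 tumors in blue and MC-38 tumors in red and bars for the mean and SD of each group (n = 3 or 4). In RM-9 the 3 h tumors stand above the controls without overlap in 9 of 10 genes, and Zmat3 and Phlda3 are far lower in MC-38.

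At 12 h 2 of the 10 genes, Cdkn1a and Trp53inp1, were called higher in RM-9. Cdkn1a, at 129, 141, 171 and 122 TPM, and Trp53inp1, at 5.10, 5.55, 6.84 and 6.39 TPM, were above all 4 controls, with log2 changes of 0.52 (SE 0.13, adjusted p = 0.0303) and 0.68 (SE 0.18, adjusted p = 0.0396). Of all genes 0.0714% were called higher, and the same 2 genes passed under median-ratio scaling (0.0928% of all genes), at 0.74 (adjusted p = 0.0395) and 0.88 (adjusted p = 0.0497). Groups did not overlap for 2 of 10 on TPM (0.243% of all genes) and for 5 of 10 under median-ratio scaling (3.56%). Ccng1, at 69.2 to 106 TPM, did not pass, with a log2 change of 0.41 (SE 0.18, adjusted p = 0.145). Zmat3 and Ppm1d had mean TPM below their controls, with log2 changes of -0.26 (SE 0.13, adjusted p = 0.169) and -0.084 (SE 0.11, adjusted p = 0.641). The number called was 0 without RM-9 control mouse 1 or 2 or 4 or RM-9 RT 12 h mouse 1 or 2 or 3 or 4, and 0 with only the compared groups in the fit. In these tumors the summed markers of 3 cell types lay below every control: epithelial cells at 669.6 to 1137 TPM (controls 1155 to 1396), macrophages at 185 to 368 TPM (controls 377 to 594) and T cells at 1.90 to 5.30 TPM (controls 6.37 to 10.5). On TPM 1 of 5, 5 of 7 and 3 of 4 of their tested genes were called lower, where 8.3% of all genes were. None were called lower under median-ratio scaling, where 0.0428% of all genes were. On TPM 19.4% of all genes lay below every control. The part of these cell types in the result was not tested.

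From 3 h to 12 h, 9 of the 10 genes were called lower on TPM in RM-9, but 28.7% of all genes were too. Btg2 also had a lower mean, at 18.7 TPM after 26.5 TPM. It did not pass, with a log2 change of -0.45 (SE 0.21, adjusted p = 0.117). Median-ratio scaling left 2 that were called lower (0.243% of all genes): Trp53inp1, with a log2 change of -0.77 (adjusted p = 0.0363), and Zmat3, with -0.37 (adjusted p = 0.0402). Trp53inp1 went from 9.55 to 18 TPM to 5.10 to 6.84 TPM without overlap, and 6 of the 10 had no overlap on TPM, against 28.1% of all genes. Cdkn1a had a log2 change of -0.43 (SE 0.13, adjusted p = 0.0246) on TPM and -0.14 (adjusted p = 0.511) under that scaling. The count on TPM was 0 without RM-9 RT 3 h mouse 4 or RM-9 RT 12 h mouse 1.

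At 24 h none of the 10 genes passed in RM-9, on TPM or under median-ratio scaling. Limma called 0% of all genes higher and 0% lower, and 681 genes (4.86%) had an unadjusted p under 0.05, 4 of the 10 among them. Those 4 were Cdkn1a, Trp53inp1, Plk2 and Ccng1. Cdkn1a had 175, 168 and 174 TPM in the 3 tumors, all above the controls, with a log2 change of 0.83 (SE 0.14, adjusted p = 0.167) and a 95% interval of 0.54 to 1.11. Plk2 had 13.1, 9.84 and 15 TPM, again above all controls, with a log2 change of 0.62 (SE 0.16, adjusted p = 0.785). Trp53inp1 had 6.64, 5.34 and 7.06 TPM and a log2 change of 0.76 (SE 0.20, adjusted p = 0.801). Btg2 was the fourth gene whose groups did not overlap, at 20.9, 21.1 and 21.2 TPM, so 4 of 10 stood clear of the controls against 2.01% of all genes. Under median-ratio scaling 6 of 10 did, against 3.18% of all genes. The log2 changes of the other 5 genes were 0.30 for Sesn2, 0.24 for Eda2r, 0.16 for Ppm1d, 0.17 for Phlda3 and -0.056 for Zmat3. The exact two-sided permutation test gave p = 0.0571 for Cdkn1a, Trp53inp1, Btg2 and Plk2, the smallest value that 3 tumors against 4 can give. T cell markers, at 3.74 to 4.57 TPM, again summed to less than in every control, and their part in the result was not tested. Between 12 h and 24 h no gene of the 10 passed and limma called 0% of all genes higher. There 2 of the 10, Cdkn1a and Plk2, had an unadjusted p under 0.05, as did 18.8% of all genes.

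In MC-38 tumors Trp53inp1 and Cdkn1a rose at all 3 times after RT on TPM. At 3 h they were the only genes of the 10 called higher, 2 of 10 where 0.051% of all 15698 genes tested were. Trp53inp1 had 1.36, 1.57, 2.03 and 1.54 TPM in controls and 5.88, 5.08, 6.36 and 3.93 TPM at 3 h, a 2.72-fold rise with a log2 change of 1.44 (SE 0.17, adjusted p = 0.00561). Cdkn1a had 52.8, 65.3, 62.4 and 52.4 TPM in controls and 108, 92.8, 120.4 and 86.4 TPM at 3 h, a 1.74-fold rise with a log2 change of 0.80 (SE 0.12, adjusted p = 0.0195). The groups of both genes were fully apart on TPM. Median-ratio scaling also called 2 of 10 (0.312%), but with Zmat3 in place of Cdkn1a: Trp53inp1 at 1.27 (adjusted p = 0.00579), Zmat3 at 0.45 (adjusted p = 0.0248) and Cdkn1a at 0.58 (adjusted p = 0.0819). Zmat3 had 1.96, 2.79, 3.34 and 2.97 TPM in controls and 4.27, 4.01, 4.79 and 4.96 TPM at 3 h, and its log2 change on TPM was 0.63 (SE 0.14, adjusted p = 0.0791).

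Ppm1d and Phlda3 also stood above all MC-38 controls at 3 h, so that 5 of 10 genes did on TPM, against 7.2% of all genes. Under median-ratio scaling 2 of 10 did, Trp53inp1 and Zmat3, against 5.76%. Ppm1d had 7.32, 9.64, 10.8 and 10.5 TPM in controls and 12.8, 10.8, 13.4 and 14 TPM at 3 h, with a log2 change of 0.41 (SE 0.14, adjusted p = 0.172). Phlda3 had 36.1, 27.5, 30.7 and 31.6 TPM and 39, 45.7, 37.2 and 48.4 TPM, with a log2 change of 0.43 (SE 0.15, adjusted p = 0.17). Neither passed the test, and under median-ratio scaling the log2 changes were 0.20 (adjusted p = 0.212) and 0.21 (adjusted p = 0.616). Plk2, one of the genes that rose in RM-9, had 32.8, 57.2, 47.8 and 36.7 TPM in controls and 34.1, 44.5, 42 and 51.9 TPM at 3 h, with full overlap and a 95% interval of the log2 change of -0.44 to 0.44. Ccng1 overlapped through 1 control: mouse 1 had 67.4 TPM, above all 4 irradiated tumors at 44.9 to 58.8 TPM, while the other controls had 28.1, 31.4 and 39.7 TPM. Btg2 (6.96 to 9.45 TPM in controls, 8.37 to 11.9 TPM at 3 h), Sesn2 (8.49 to 24 and 15.5 to 25.5 TPM) and Eda2r (7.72 to 15.7 and 11 to 17 TPM) overlapped too, and none passed. Mouse 1 also had the highest skeletal muscle sum (10125 TPM), the highest mt-Nd4l share (29.6%) and the lowest Sesn2 of the controls (8.49 TPM); the part of muscle in these values was not tested. Macrophage markers summed to 814 to 1306 TPM in controls and 564 to 892 TPM at 3 h and T cell markers to 22.3 to 33.9 and 15.2 to 29.5 TPM, and their part was not tested either. The number of genes called at 3 h was 1 without MC-38 control mouse 1 or 4 or MC-38 RT 3 h mouse 1 or 3, and 0 with only the compared groups in the fit.

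At 12 h 5 of 10 genes were called higher in MC-38 (Trp53inp1, Sesn2, Zmat3, Ppm1d and Cdkn1a), but 28.5% of all genes were too. Only Trp53inp1 and Zmat3 also passed under median-ratio scaling, where 6.34% of all genes were called higher. Trp53inp1 had 3.38, 3.46, 4.02 and 4.23 TPM, with a log2 change of 1.01 (SE 0.17, adjusted p = 0.00537) on TPM and 0.73 (adjusted p = 0.0118) under median-ratio scaling. Zmat3 had 4.12, 4.95, 4.58 and 4.36 TPM, with 0.63 (SE 0.14, adjusted p = 0.0125) and 0.33 (adjusted p = 0.0141). Both lay above every control on either scale, the only 2 of 10 to do so under median-ratio scaling, where 13.8% of all genes did. The other 3 calls shrank with the scaling: Sesn2 from 0.71 to 0.37 (adjusted p = 0.108), Ppm1d from 0.50 to 0.17 (adjusted p = 0.152) and Cdkn1a from 0.42 to 0.072 (adjusted p = 0.753). On TPM, 4 of the 10 genes lay above every control, against 34.5% of all genes. All 4 were among the 5 called. Sesn2 overlapped, at 20.8, 28.5, 24.3 and 30.2 TPM after RT and 8.49, 16.9, 24 and 16.8 TPM in controls. Btg2 and Plk2 had mean TPM close to that of the controls, with 95% intervals of the log2 change of -0.30 to 0.29 and -0.47 to 0.42. Under median-ratio scaling their log2 changes were -0.33 (adjusted p = 0.152) and -0.37 (adjusted p = 0.164). The number called was 2 without MC-38 RT 12 h mouse 2 and 3 without MC-38 control mouse 1 or 4 or MC-38 RT 12 h mouse 3 or 4, and 1 with only the compared groups in the fit. Macrophage markers summed to 814 to 1306 TPM in MC-38 controls and 294 to 704 TPM at 12 h, and T cell markers to 22.3 to 33.9 TPM and 12.6 to 24.9 TPM. On TPM 5 of 7 macrophage markers and 4 of 7 T cell markers were called lower, where 2.59% of all genes were. Their part in the result was not tested.

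At 24 h Cdkn1a, Trp53inp1 and Zmat3 were called higher in MC-38, 3 of 10 where 13.2% of all genes were. Cdkn1a had 111, 84.4, 99.4 and 93.2 TPM, all above the controls, with a log2 change of 0.73 (SE 0.12, adjusted p = 0.00143), the smallest adjusted p of any of the 10 in MC-38. Median-ratio scaling kept Cdkn1a at 0.47 (adjusted p = 0.0398) and Zmat3 at 0.32 (adjusted p = 0.014), 2 of 10 against 7.85% of all genes, but not Trp53inp1 at 0.42 (adjusted p = 0.0995). Zmat3 had 3.70, 4.14, 4.50 and 4.46 TPM and Trp53inp1 2.61, 3.49, 2.06 and 3.09 TPM, each above all 4 controls, so 3 of 10 did not overlap on TPM against 14.8% of all genes. Under median-ratio scaling only Zmat3 had no overlap, 1 of 10 against 8.4% of all genes. The number called was 1 without MC-38 RT 24 h mouse 2 or 4 and 5 without MC-38 RT 24 h mouse 1, and 1 with only the compared groups in the fit. Summed markers of 3 cell types did not overlap the controls at 24 h: macrophages at 651 to 812 TPM (controls 814 to 1306) and T cells at 10.5 to 21.4 TPM (controls 22.3 to 33.9) were lower, and endothelial cells at 57.5 to 76.3 TPM (controls 41.8 to 57.1) were higher. On TPM 1 of 7 macrophage and 3 of 7 T cell markers were called lower, where 0.548% of all genes were. Of the endothelial markers 2 of 6 were called higher, where 13.2% of all genes were. The part of these cell types in the result was not tested. From 3 h to 12 h and from 12 h to 24 h limma called 0 of the 10 in MC-38, with 3 of 10 at an unadjusted p under 0.05 in each step, as had 10.1% and 14% of all genes. In the first step these were Cdkn1a, Btg2 and Trp53inp1, all with lower TPM at 12 h, and 0% of all genes were called lower. On TPM 2 of the 10, Cdkn1a and Btg2, lay without overlap below their 3 h range, against 1.53% of all genes. In the second they were Btg2 and Cdkn1a, higher at 24 h, and Trp53inp1, lower, where 1.39% of all genes were called higher and 0.293% lower. Cdkn1a stood at 86.4 to 120.4 TPM at 3 h, 73.8 to 82.8 TPM at 12 h and 84.4 to 111 TPM at 24 h. Its 12 h range did not overlap the range at 3 h or 24 h, but neither step passed the test over all genes (adjusted p = 0.306 and 0.245).

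**Figure D3:**
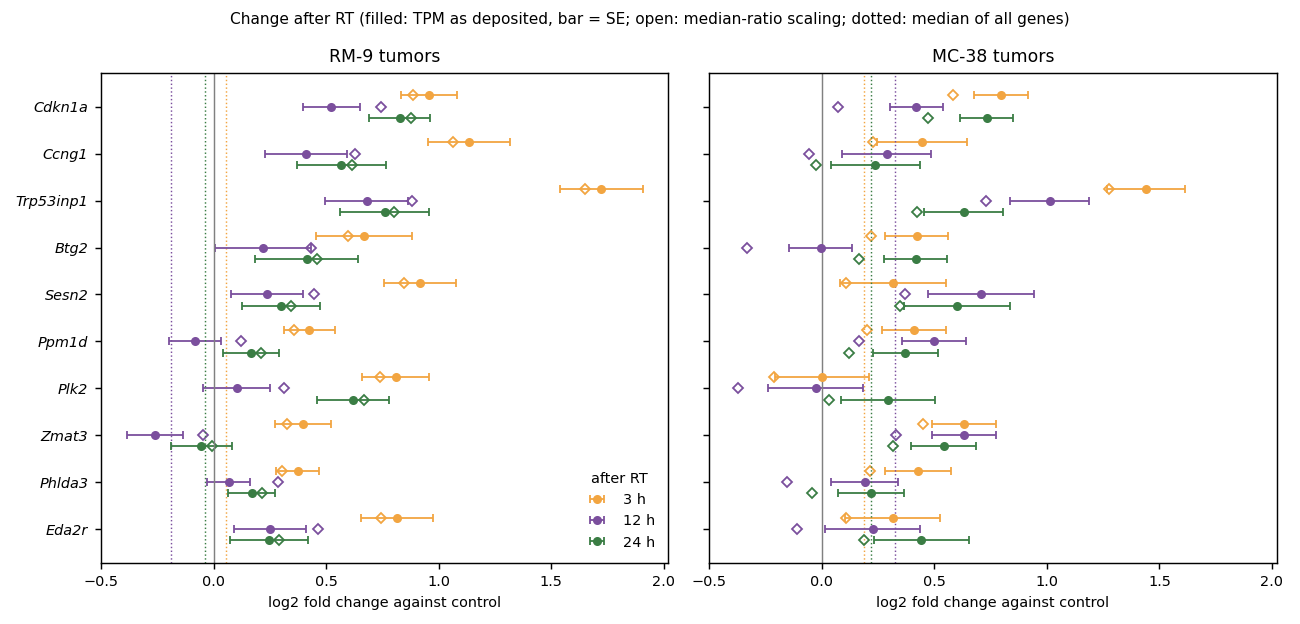
Log2 change of each gene against the control tumors of its model at 3, 12 and 24 h (colours), on TPM as deposited (filled, bars are the SE) and under median-ratio scaling (open diamonds), with the median over all genes tested as dotted lines. In RM-9 the filled 3 h points lie farthest right in all 10 genes, and in MC-38 Trp53inp1 stands apart at 3 h with 1.44 on TPM.

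Whether the response differed between the models was tested as the change in MC-38 minus the change in RM-9, in 1 fit of all 31 tumors over 15358 genes. At 3 h none of the 10 differences passed, and limma called 0% of all genes. The difference for Plk2 was -0.81 (SE 0.27, adjusted p = 0.369), with a 95% interval of -1.36 to -0.26, and that for Ccng1 was -0.69 (SE 0.28, adjusted p = 0.451), with -1.27 to -0.11; these 2 had an unadjusted p under 0.05, as did 9.89% of all genes. For Cdkn1a and Trp53inp1, which rose in both models, the intervals were -0.51 to 0.20 and -0.80 to 0.24. At 12 h Zmat3 and Ppm1d were called with a larger change in MC-38 than in RM-9, 2 of 10 where 44.9% of all genes were. The Zmat3 difference was 0.89 (SE 0.18, adjusted p = 0.00201) on TPM and 0.39 (adjusted p = 0.0318) under median-ratio scaling, where 1.53% of all genes passed. The Ppm1d difference of 0.58 (SE 0.18, adjusted p = 0.0136) became 0.072 (adjusted p = 0.768) under that scaling. At 24 h none passed, where 1.81% of all genes were called higher, the nearest being Zmat3 with 0.60 (SE 0.19, adjusted p = 0.083); without MC-38 control mouse 3 it passed, with 0.68 (adjusted p = 0.0281). Zmat3 was also the only gene of the 10 with an unadjusted p under 0.05 at 24 h, as had 22.2% of all genes. The median difference of the 10 genes on TPM was -0.26, 0.049 and 0.028 at 3, 12 and 24 h, beside 0.13, 0.50 and 0.25 for all genes. Under median-ratio scaling it was -0.42, -0.48 and -0.23, beside 0.010, 0.024 and 0.020 for all genes.

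The genes differed between the models already without RT. On TPM, 9 of 10 passed between MC-38 and RM-9 control tumors, 6 lower in MC-38 (10.7% of all genes) and 3 higher (64.7%). The median log2 difference over all genes was 0.63, so that a gene with equal standing among other genes has a higher TPM in MC-38. Zmat3 had the widest gap, with 17.4, 16.4, 19 and 19.7 TPM in RM-9 and 1.96, 2.79, 3.34 and 2.97 TPM in MC-38, a log2 difference of -2.53 (SE 0.13, adjusted p = 1.42e-15) on TPM and -3.15 (adjusted p = 2.82e-23) under median-ratio scaling. Phlda3 was next among the lower genes, at 89.6 ± 5.40 (SD, n = 4) TPM in RM-9 and 31.5 ± 3.56 (SD, n = 4) TPM in MC-38, with -1.50 (SE 0.12, adjusted p = 3.11e-11) and -2.16 (adjusted p = 6.65e-12). Plk2 went the other way, at 7.98 ± 0.890 (SD, n = 4) TPM in RM-9 and 43.6 ± 11.1 (SD, n = 4) TPM in MC-38, with 2.35 (SE 0.19, adjusted p = 1.61e-11) and 1.70 (adjusted p = 7.24e-10). The ranges of these 3 genes did not overlap between the models.

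Btg2, Trp53inp1, Cdkn1a and Ccng1 were also lower in MC-38 controls, with log2 differences of -0.97, -0.93, -0.74 and -0.71 on TPM, and larger ones under median-ratio scaling. Only Ccng1 of these overlapped between the models, at 28.1 to 67.4 TPM in MC-38 and 52.6 to 79.8 TPM in RM-9 (exact permutation test, p = 0.114). On TPM 5 of the 10 genes lay below every RM-9 control, against 9.09% of all genes. Sesn2 and Ppm1d were higher on TPM, with 0.94 (SE 0.21, adjusted p = 0.000259) and 0.56 (SE 0.13, adjusted p = 0.0003), but Sesn2 was 0.29 (adjusted p = 0.106) and Ppm1d turned to -0.072 (adjusted p = 0.453) under median-ratio scaling. Eda2r did the opposite, with -0.23 (SE 0.19, adjusted p = 0.289) on TPM and -0.87 (adjusted p = 0.000101) under the scaling, which called 7 of 10 lower (31.5%) and 1 higher (34.1%). By mean TPM the order in RM-9 controls was Cdkn1a, Phlda3, Ccng1, Zmat3, Btg2, Eda2r, Sesn2, Plk2, Ppm1d and Trp53inp1, from 97.6 down to 3.54 TPM. Neighbours in this order overlapped between mice, except Phlda3 and Ccng1, Ccng1 and Zmat3, Eda2r and Sesn2, and Ppm1d and Trp53inp1. In MC-38 controls Cdkn1a again led, at 58.2 TPM, Plk2 was second at 43.6 TPM, and Zmat3 and Trp53inp1 were last at 2.77 and 1.63 TPM. All neighbours of that order overlapped except Phlda3 and Sesn2, and Btg2 and Zmat3. This order holds for TPM as deposited. FPKM was 3.54 times the value implied by read coverage for Cdkn1a and 6.16 times for Ppm1d (medians over the libraries). For 4 of the genes, Ccng1, Btg2, Sesn2 and Plk2, this ratio was 1.

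**Figure D4:**
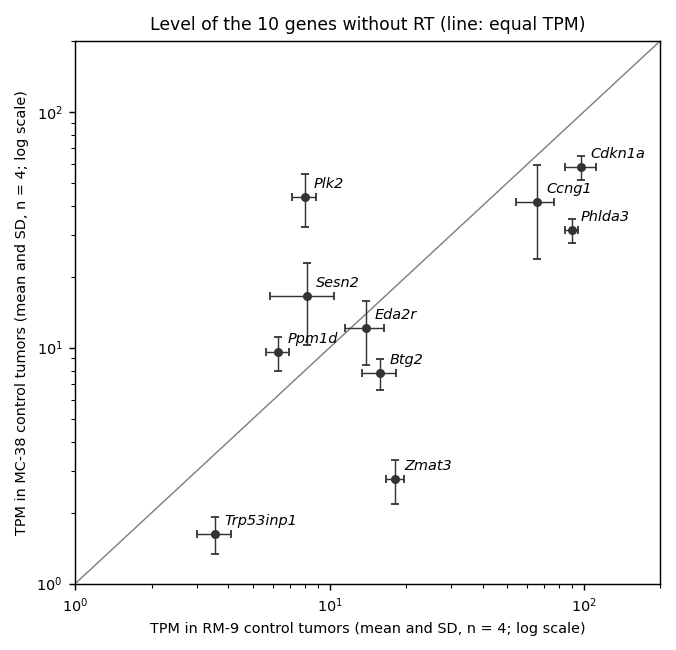
Mean TPM and SD (n = 4) of each gene in RM-9 (horizontal) and MC-38 (vertical) control tumors, both axes on a log scale, with a line of equal TPM. Zmat3 and Phlda3 lie far below the line and Plk2 far above it.

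Trp53, which encodes p53 itself, is controlled mainly at the protein level. Its TPM in RM-9 was 91.7, 87.3, 89.4 and 102 in controls and 90.8, 97.1, 76.8 and 97.8 at 3 h, with a log2 change of -0.033 (adjusted p = 0.859). At 12 h, at 57.2, 68.6, 70.3 and 67.7 TPM, it was lower than in every control on TPM, with -0.49 (adjusted p = 0.0246), and -0.27 (adjusted p = 0.0623) under median-ratio scaling. In MC-38 it was 87.5, 135, 143 and 106 TPM in controls and 157, 172, 152 and 146 TPM at 12 h, higher than in every control on TPM, with 0.44 (adjusted p = 0.0271), and 0.087 (adjusted p = 0.413) under the scaling. The difference of the 12 h change, MC-38 minus RM-9, passed on both scales, at 0.92 (adjusted p = 0.00155) and 0.39 (adjusted p = 0.0166). Mdm2, which encodes the ubiquitin ligase that degrades p53 and is itself a p53 target, went from 512, 462, 880.1 and 721 TPM in RM-9 controls to 1606, 1586, 1184 and 1692 TPM at 3 h, a log2 change of 1.27 (adjusted p = 0.015). In MC-38 it went from 12.2, 18.4, 18.4 and 13.6 TPM to 27.8, 31.7, 38.2 and 38.3 TPM, a log2 change of 1.11 (adjusted p = 0.0121). The levels of the models were far apart in controls, by a log2 difference of -5.29 (adjusted p = 1.11e-19), and the difference of the change between the models at 3 h was -0.17 (adjusted p = 0.855).

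The other p53 targets were counted from lists for comparison with the 10 genes. At 3 h in RM-9, 2 of 8 targets of DNA repair and nucleotide supply were called higher (0.2% of all genes), the polymerase gene Polk with 0.79 (adjusted p = 0.0384) and the nuclease gene Ercc5 with 0.80 (adjusted p = 0.0443). None of 11 targets of cell death passed on TPM and 4 were called higher under median-ratio scaling (1.61% of all genes), where Apaf1, the core of the apoptosome, had 0.64 (adjusted p = 0.00776) and the death receptor gene Tnfrsf10b 0.37 (adjusted p = 0.032). None of 11 targets of metabolism and stress passed on either scale, the nearest being Gdf15 with 0.99 (adjusted p = 0.0811). List medians on TPM were 0.30, 0.44 and 0.15, beside 0.81 for the 10 genes and 0.056 for all genes. In MC-38 at 3 h none of these 3 lists had a called gene on either scale, with medians of 0.42, 0.44 and 0.18 beside 0.43 for the 10 genes and 0.19 for all genes. At 12 h in MC-38 the repair list had 3 of 8 higher on TPM, where 28.5% of all genes were, and 2 under median-ratio scaling, where 6.34% were, Polk with 0.57 (adjusted p = 0.00716) and Rrm2b, a ribonucleotide reductase subunit, with 0.35 (adjusted p = 0.0486).

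Cell cycle genes were counted in the same way. Of 12 G2/M genes none passed at 3 h in RM-9 on TPM, and 7 were called lower under median-ratio scaling, where 1.13% of all genes were. Among them were Cdc20, the activator of the anaphase ubiquitin ligase, at -0.78 (adjusted p = 0.00862) and Plk1, a mitotic kinase, at -0.73 (adjusted p = 0.00927). The list median was -0.40 on TPM and -0.47 under the scaling. In MC-38 3 of 12 were called lower under median-ratio scaling (0.357% of all genes), Cdc20 among them with -1.46 (adjusted p = 0.0129), and the median was -0.45 on TPM and -0.65 under the scaling. At 12 h in MC-38 5 of the 12 were called higher on TPM, where 28.5% of all genes were, and 2 under the scaling, where 6.34% were, Aurkb at 0.47 (adjusted p = 0.00913) and Top2a at 0.43 (adjusted p = 0.0151). Of 10 cyclins and kinases that p21 binds, none passed on TPM at 3 h in either model, and under median-ratio scaling Ccna2 fell in RM-9 with -0.42 (adjusted p = 0.0439). Sesn2 is also a target of ATF4, the factor of the integrated stress response. Of 8 ATF4 targets none passed at 3 h in either model on either scale. Calls were rare at that time, as on TPM limma put only 0.2% (RM-9) and 0.051% (MC-38) of everything tested higher. An absence of calls among 8 genes therefore says little, and the part of ATF4 in the Sesn2 values was not tested. Of 10 immediate early genes only Fos passed at 3 h, in MC-38, with 0.90 (adjusted p = 0.0366). In the list of p53 and its regulators, 8 of 10 genes were tested and only Mdm2 passed at 3 h in both models.

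**Figure D5:**
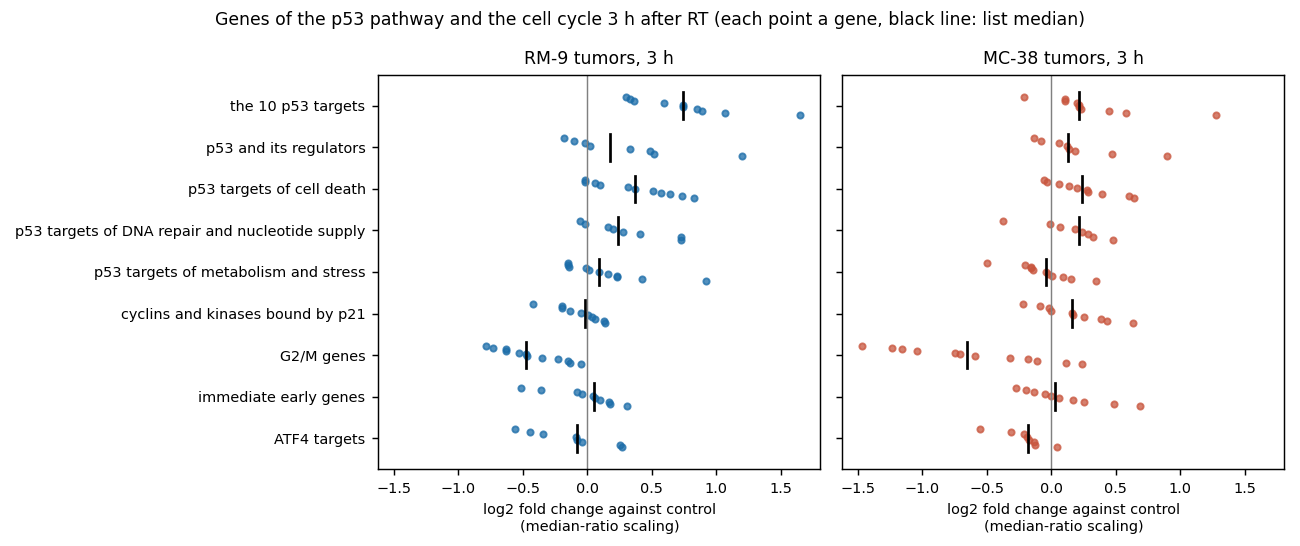
Log2 change against control at 3 h under median-ratio scaling for each gene (points) of the 10 p53 targets and of 8 further lists, with the list median as a black line, in RM-9 (left) and MC-38 (right). In RM-9 all 10 targets lie right of 0, and most G2/M genes lie left of 0 in both models.

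Across tumors of 1 model the genes were compared by Pearson's r between each gene and the mean of the other 9, after scaling and subtracting each model's control mean. Over the 15 RM-9 tumors r was 0.970 for Trp53inp1, 0.951 for Ccng1 and 0.871 for Plk2, and lowest for Zmat3, at 0.507. Over the 16 MC-38 tumors it was 0.854 for Cdkn1a and 0.568 for Zmat3, but -0.050 for Plk2 and -0.22 for Sesn2. These tumors share the treatment groups and the control mean, so r mixes the response to RT with variation between mice, and no difference between the models was tested. Among 12246 other genes, those most like the mean of the 10 over the 31 tumors were Ddias (r = 0.874), Ei24 (0.868), Dcxr (0.862), Acad11 (0.858) and Susd6 (0.825).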

How the data were processed

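RNA from 31 tumors was sequenced as single-end reads of 75 bases after stranded poly(A) library preparation. The submitters' processing notes name bcl2fastq 2.17 and GRCm39, but the gene coordinates in the files are those of GENCODE M21 on GRCm38 (45137 of 46072 genes shared, 100% of them on the same chromosome and 91.1% with the same start or end). GRCm38 positions are therefore printed as the files give them. The aligner and the counter are not given in the sources used here. The deposited tables hold TPM, FPKM and read coverage per gene and library, made by the authors without pooling, and no read counts. TPM was tested, and FPKM and coverage served only to work out depth and an alternative.

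Groups came from the sample labels. The tested value was log2(TPM + 0.5). R 4.3.3 and limma 3.58.1 gave moderated tests with a mean trend, over genes with a mean of at least 0.5 TPM, one fit per tumor model and 1 joint fit for differences between models. P-values were adjusted over all genes by Benjamini-Hochberg, and 0.05 was the threshold for a call. For median-ratio scaling, a library's factor was the median over genes of TPM relative to the geometric mean across libraries. The scripts were tested on simulated data. Alternatives covered the pseudocount, filter, scaling, mitochondrial genes, single mice, groups in the fit, replicate block and trend, and coverage and the scaled block were chosen after seeing the data. Tables were computed in Python 3.11.15 with pandas 2.3.3 and scipy 1.17.1. Named genes are the 10 members, Trp53, Mdm2, up to 2 other genes of a list with the smallest limma p in a comparison, and the 5 genes most like the members' mean. The members and lists were chosen with earlier results of these data known. As the files hold no counts, no counting interval is given for TPM, and p-values measure the spread between mice.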

Additional observations from a re-analysis of the deposited data

Results flagged for a closer look

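The change from control to 12 h after RT differed between MC-38 and RM-9 tumors for 2 of the 10 genes by the test of the difference itself. In the same test 44.9% of all genes were called with a larger change in MC-38. Under median-ratio scaling 1 of the 10 and 1.53% of all genes were. For Zmat3 the difference (MC-38 minus RM-9) was 0.89 on the log2 scale, from a change of 0.63 in MC-38 and -0.26 in RM-9, and it was 0.39 (adjusted p = 0.0318) under median-ratio scaling in limma. For Ppm1d it was 0.58, from 0.50 and -0.084, and 0.072 (adjusted p = 0.768) under that scaling. The median difference over all genes was 0.50 on TPM. Under median-ratio scaling it was 0.024, beside -0.48 for the 10 genes. Of 70 sets of 4 tumors examined (1 gene in 1 group each), none was flagged for an outlying tumor, where chance gives about 5%. A set of 4 leaves such a check little room, so no conclusion is drawn from it. Among the MC-38 controls Ccng1 was 67.4 TPM in mouse 1 and 28.1, 31.4 and 39.7 TPM in the others.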

How the results depend on the processing

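Of 2930 recomputed values of single genes, 2580 kept their direction and side of the threshold, 165 lost a call, 46 gained one and 136 changed sign without passing in either fit. Only 3 called values changed sign, all for Ppm1d between control tumors: from 0.56 on TPM to -0.072 under median-ratio scaling, -0.092 with coverage under that scaling and -0.072 with the scaling and the replicate block. The number of the 10 genes called at 3 h in RM-9 was 5, and was 8 under median-ratio scaling, 2 with no filter on low values, 2 with the replicate block and 0 with only the compared groups in the fit. At 12 h in RM-9 it was 2, and was 1 without mitochondrially encoded genes and 0 with no filter, with the scaled replicate block or with only the compared groups. Between 3 h and 12 h in RM-9 it was 9, and was 2 under median-ratio scaling, 2 without mitochondrial genes, 2 with scaled coverage and 0 with the scaled block. In MC-38 at 3 h it was 2, and was 1 with the scaled block and 0 with only the compared groups. At 12 h in MC-38 it was 5, and was 2 under median-ratio scaling, scaled coverage or the scaled block, and 1 with only the compared groups, which also gave 1 in place of 3 at 24 h. The difference between models at 12 h had 2, and 1 under median-ratio scaling or without mitochondrial genes. Scaled coverage and the scaled block gave Zmat3 and Cdkn1a in place of Zmat3 and Ppm1d, with Cdkn1a at -0.69 (adjusted p = 0.038) and -0.64 (adjusted p = 0.0306), against -0.10 (adjusted p = 0.626) on TPM. The causes were not tested, beyond the fewer tumors where only the compared groups were fitted.

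Leaving out 1 mouse gave 1 to 6 calls at 3 h in RM-9, 0 to 2 at 12 h, 0 to 10 between 3 h and 12 h, 1 to 3, 2 to 5 and 1 to 5 in MC-38 at 3, 12 and 24 h, and 2 to 3 and 0 to 1 for the difference between models at 12 and 24 h; for the other comparisons it gave the number on all mice. Dunnett's test of each gene alone within a model, which does not adjust over all genes, put 10, 2 and 3 of 10 under 0.05 at 3, 12 and 24 h in RM-9 and 6, 5 and 5 in MC-38. It was run on the 10 genes only, so these counts have no share over all genes. The unadjusted limma p was under 0.05 for 21.8, 31 and 4.86% of all genes in RM-9 and 19.9, 48.1 and 30.5% in MC-38. Replicate numbers name different mice: over same-numbered mice the median correlation of deviations was -0.0752 in 21 RM-9 pairs (5 over 0.1) and -0.0686 in 24 MC-38 pairs (7 over 0.1), so they do not pair tumors. The unscaled block gave 4 in place of 3 at 24 h in MC-38 and, apart from 3 h in RM-9 above, the same number elsewhere.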
